A study of Mus musculus with 2 samples.

Results

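The semaphorin, plexin and neuropilin genes form a signalling family of ligands and receptors, and their transcripts were compared between CD8+ and CD8- dendritic cells (DCs) of mouse spleen. Members were chosen by name alone, as genes whose symbol starts with Sema and a digit, Plxn and a letter, or Nrp and a digit, with a probe set (a group of short oligonucleotide probes) assigned to that single gene. The rule found 32 genes among 18194 on the array: 20 semaphorins, 9 plexins, both neuropilins, and Plxna4os1, a noncoding RNA named as the opposite strand of Plxna4. All 32 RefSeq genes (GRCm38.p6 assembly) whose names fit the rule had such a probe set. Where a gene had several, the brightest over both arrays stood for it.

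DCs present antigen to T cells, and those of the spleen divide by the surface protein CD8α. In C57BL/6 mice they had been expanded by injecting B16 melanoma cells that produced Flt3 ligand, a growth factor for DCs, so both populations came from hosts of these tumour cells. After 10 to 12 days spleen DCs were enriched by magnetic separation (MACS) and sorted as CD11c+ cells lacking CD3 and B220, with CD8α (CD8+ DCs) or without it (CD8- DCs), and neither received stimulation. The sources used here do not give the age or number of the mice. Total RNA of each population was measured on 1 array as log2 signal, so no difference reported here could be tested against variation between mice, sorts or hybridisations.

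Semaphorins are ligands that steer the movement and contacts of cells. Class 3 members are secreted and act through neuropilins paired with plexins, classes 4 to 6 span the membrane, and Sema7a is held to the membrane by a lipid anchor. Plexins are their main receptors: their cytoplasmic part switches off Ras-family GTPases and thereby loosens integrin adhesion and reshapes the actin cytoskeleton. In the immune system Sema4a and Sema4d act in the contacts between DCs, T cells and B cells, and plexin A1 and neuropilin 1 have been linked to DC migration and to contact with T cells.

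The sort labels matched their marker genes. Cd8a gave a log2 signal of 11.29 in CD8+ DCs, against 5.15 in CD8- DCs. Among signature genes, 10 of 11 measured for CD8+ DCs and 8 of 9 for CD8- DCs were past 2-fold in favour of their own subset. Of all measured genes, 3.55% and 5.97% were past it in those directions. The lists were chosen with earlier results of these data known, and CD8α was itself used in the sort, so these counts only describe. A gene was called measured where its higher value reached 3.85, a floor for near-background signal set at the median of both arrays' values. No neutrophil marker (5 on the array) reached it, and 2 of 6 T cell, 1 of 4 regulatory T cell, 2 of 5 B cell, 1 of 4 NK cell, 1 of 3 erythroid, 2 of 3 platelet and 1 of 5 B16 melanoma markers did. All 6 plasmacytoid DC markers did, and their linear signals summed to 545 in CD8+ DCs, against 544 in CD8- DCs. That near-equal sum holds opposite differences: Ccr9 was at 8.03 in CD8+ DCs, against 5.94 in CD8- DCs, and Tcf4 at 5.47 in CD8+ DCs, against 7.55 in CD8- DCs. Siglech and Ly6d lay near the floor. Siglech was at 3.71, below it, in CD8+ DCs, against 4.04 in CD8- DCs, and Ly6d at 4.19 in CD8+ DCs, against 3.94 in CD8- DCs. Markers of red pulp macrophages summed to 217 in CD8+ DCs, against 477 in CD8- DCs, with 5 of 7 measured and Spic and Mertk below the floor on both arrays. The 5 were split, since Hmox1 and Vcam1 were higher in CD8+ DCs and Adgre1, C1qa and C1qb in CD8- DCs. Endothelial markers summed to 165 in CD8+ DCs, against 276 in CD8- DCs, with 3 of 7 measured and Cdh5, Tek, Emcn and Stab2 below the floor. The B cell markers summed to 95.2 in CD8+ DCs, against 158 in CD8- DCs, with Cd79a, Pax5 and Ebf1 below the floor. Of its 2 measured markers, Cd79b was higher in CD8- DCs and Ms4a1 in CD8+ DCs. The part of such cells in the differences below was not tested.

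Among the family members measured, 16 were under 2-fold and 5 were at least 2-fold apart. Sema4f was higher in CD8+ DCs. The receptor genes Plxnc1, Plxnb2 and Plxnd1 and the ligand gene Sema7a were higher in CD8- DCs. Of the 32 genes, 21 were measured: 11 semaphorins, all 9 plexins and Nrp1. That is 65.6% of the family, against 62.7% of all genes. Both values were at or above the floor for 18 of them, while Sema3b, Sema4b and Sema6d reached it on 1 array. A gene that reaches the floor on 1 array is selected for differing, so counts over the measured genes describe these arrays and support nothing further. At 2-fold, 1 of the 21 (4.76%) was higher in CD8+ DCs, where 3.55% of the 11404 measured genes were. The 4 higher in CD8- DCs made up 19.0%, against 5.97% of all measured genes. Differences are CD8+ minus CD8- on the log2 scale throughout. Their median was 0.17 over the 21 genes and 0.03 over all measured genes. Above 0 were 12 of the 21, and 5999 of the 11404 measured genes. With a filter at the 75th percentile, which kept 10 members, the members' median was -0.65, against -0.01 over all genes kept. In bulk RNA, fewer cells carrying a transcript and less of it per cell cannot be told apart.

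**Figure D1:**
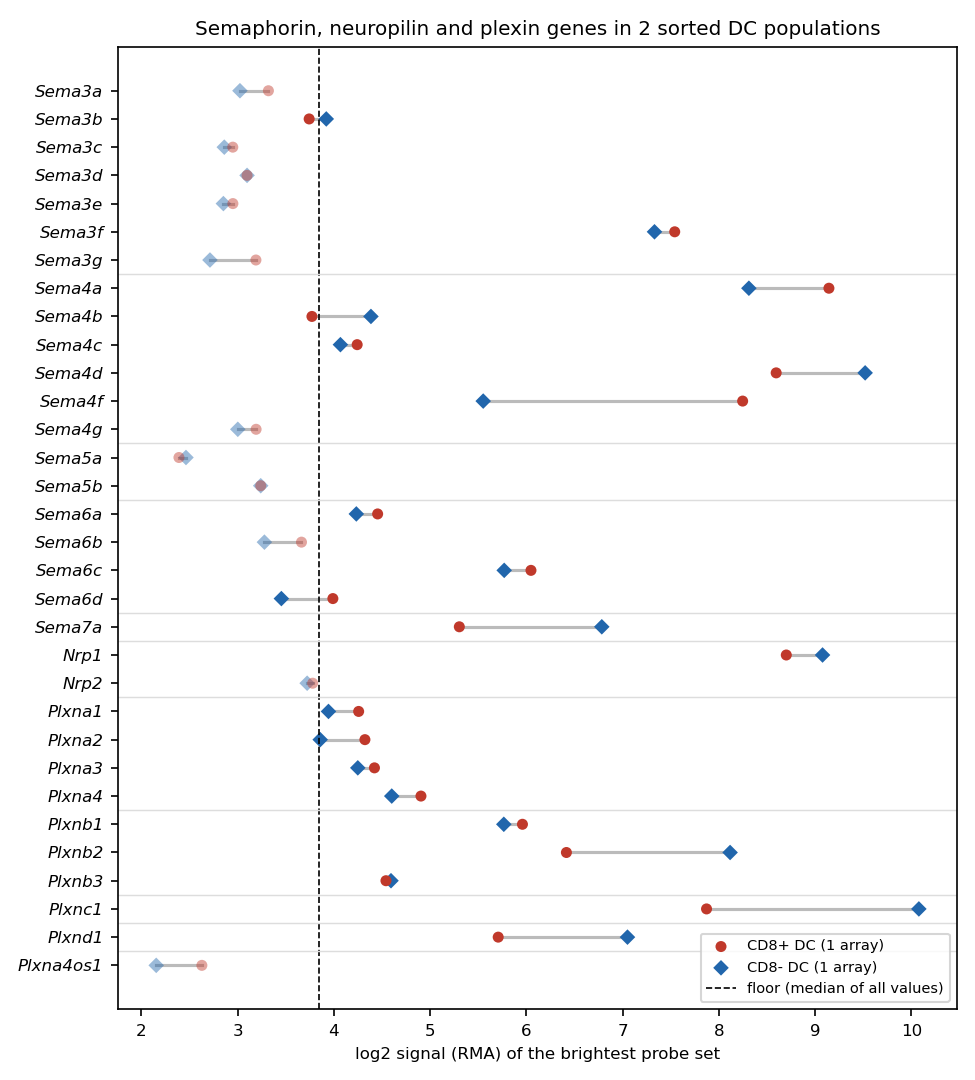
Log2 signal (x axis) of the brightest probe set of each of the 32 genes (rows, grouped by class), with a circle for the CD8+ DC array and a diamond for the CD8- DC array. The dashed line is the floor of 3.85, and the 11 genes below it on both arrays are drawn pale. Sema4f has its circle to the right (8.25, against 5.55 for CD8- DCs), and Sema7a, Plxnb2, Plxnc1 and Plxnd1 have theirs to the left.

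Signals of different probe sets depend on their oligonucleotides, so levels are set side by side between arrays and not between genes. Some spread between probe sets of a gene could be measured, which is not the spread between mice, sorts or hybridisations. Over the 5183 genes with several measured probe sets, the difference varied within a gene with a pooled SD of 0.30. Of the 21 family members, 8 lay within that distance of 0 (38.1%, against 57.4% of all measured genes), 8 lay beyond it but under 2-fold, and 5 were past 2-fold. In 7 of the 8 members with more than 1 measured probe set, all pointed the same way. The exception was Sema6c.

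**Figure D2:**
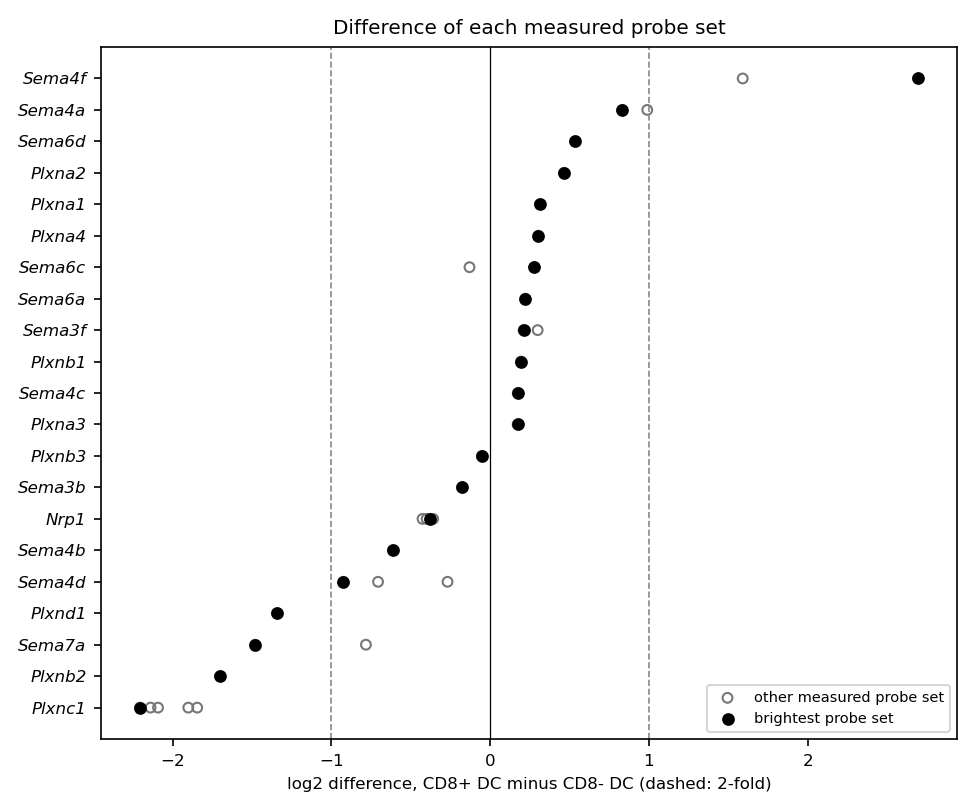
Log2 difference, CD8+ DC minus CD8- DC (x axis), of each measured probe set of the 21 measured members (rows, sorted by the brightest probe set). Filled circles are the brightest probe set of a gene, open circles its other measured probe sets, and dashed lines mark 2-fold. All 5 measured probe sets of Plxnc1 lie left of -1.8 and both of Sema4f lie right of 1.5.

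Class 4 semaphorins, which span the membrane, held the family's only gene past 2-fold in favour of CD8+ DCs. Sema4f, a class 4 member studied mainly in the nervous system, gave a log2 signal of 8.25 in CD8+ DCs, against 5.55 in CD8- DCs, 6.48-fold higher in CD8+ DCs. Of the 11404 measured genes, it had the 31st largest difference in favour of CD8+ DCs. Its other probe set read 6.20 in CD8+ DCs, against 4.61 in CD8- DCs, a difference of 1.59, against 2.70 for the brighter one. On the weaker probe set it was thus smaller in size than the difference of -2.21 for Plxnc1. The brighter one carries the _x_at name of probe sets prone to cross-hybridisation, and the weaker one does not. Thus both probe sets placed the transcript above the floor in both populations and past 2-fold in CD8+ DCs, with sizes that differed by more than the pooled SD.

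The promoter of Sema4f, from 250 bases before to 50 after the RefSeq start (GRCm38.p6, chr6:82939720-82940019, minus strand), is shown because this gene had the family's largest difference in favour of CD8+ DCs. Promoters of the 5 genes past 2-fold were searched on both strands for GAAANNGAAA, the paired GAAA of interferon-response elements, for GGAANNGAAA, a composite of ETS and IRF factors, for GAGGAAG, a purine-rich ETS core, and for GGGCGG, the GC box. They were also searched for TGANTCA, the AP-1 element, and for TATAAA, the TATA box. GAAANNGAAA and GGAANNGAAA can overlap each other, and GAGGAAG holds the GGAA that opens the composite. Capitals mark matches to GAAANNGAAA, GAGGAAG and GGGCGG on either strand.
Sema4f: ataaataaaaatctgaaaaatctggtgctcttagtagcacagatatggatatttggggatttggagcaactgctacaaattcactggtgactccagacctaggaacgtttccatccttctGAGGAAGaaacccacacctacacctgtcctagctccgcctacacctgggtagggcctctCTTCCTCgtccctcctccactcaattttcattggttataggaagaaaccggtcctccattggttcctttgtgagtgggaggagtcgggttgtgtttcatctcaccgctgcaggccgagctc

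The Sema4f window held 2 matches to GAGGAAG, 1 on each strand, a motif present in 13.6% of the 32851 RefSeq promoters of this length. It held none of the other motifs. Its GC content was 48.7% with 7 CG pairs, against a median of 52.7% GC over all promoters.

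Sema4a and Sema4d, the class 4 members best known on immune cells, leaned in opposite directions below 2-fold. Sema4a, a membrane ligand that costimulates T cells, was at 9.14 in CD8+ DCs and 8.31 in CD8- DCs, 1.78-fold higher in CD8+ DCs. These values came from an _x_at probe set, a kind prone to cross-hybridisation. The other Sema4a probe set, which lacks that name, was at 8.69 in CD8+ DCs, against 7.70 in CD8- DCs. That difference of 0.99 lies just under the threshold. Sema4d, also called CD100, was at 8.60 in CD8+ DCs and 9.52 in CD8- DCs, 1.90-fold higher in CD8- DCs. Its other 2 probe sets read 6.89 and 4.34 in CD8+ DCs, against 7.59 and 4.61 in CD8- DCs. These give differences of -0.71 and -0.27, the smaller of them within the pooled SD. At a threshold of 1.5-fold Sema4a would join Sema4f (2 of 21 genes, against 8.49% of all measured genes), and Sema4d and Sema4b would join the 4 genes higher in CD8- DCs (6 of 21, against 11.5%).

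The remaining class 4 genes lay near or below the floor. Sema4b was at 3.77, below the floor, in CD8+ DCs and 4.38 in CD8- DCs, at least 1.45-fold higher in CD8- DCs. Sema4c, a ligand of plexin B2, was at 4.24 in CD8+ DCs and 4.07 in CD8- DCs. Sema4g was below the floor on both arrays, with values 0.19 apart.

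Sema7a, the lipid-anchored ligand of plexin C1 and of β1 integrins, gave a log2 signal of 5.30 in CD8+ DCs, against 6.78 in CD8- DCs, 2.79-fold higher in CD8- DCs. Its other probe set was at 3.60, below the floor, in CD8+ DCs, against 4.39 in CD8- DCs. That difference of -0.78 was in the same direction but under 2-fold. The Sema7a promoter (GRCm38.p6, chr9:57939862-57940161, plus strand) is set against that of Sema4f because the genes are the family's 2 ligands past 2-fold, in opposite directions. Capitals mark the same motifs.
Sema7a: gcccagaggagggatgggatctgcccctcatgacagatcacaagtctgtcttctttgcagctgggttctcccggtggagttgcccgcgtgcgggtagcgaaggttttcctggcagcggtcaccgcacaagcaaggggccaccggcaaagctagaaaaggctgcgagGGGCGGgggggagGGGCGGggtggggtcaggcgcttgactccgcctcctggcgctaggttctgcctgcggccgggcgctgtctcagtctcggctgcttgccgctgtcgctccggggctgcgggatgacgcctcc

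In the Sema7a window 2 matches to GGGCGG, a motif found in 35.7% of all promoters, were the only hits, and there was none to GAGGAAG. It had 67.3% GC and 23 CG pairs.

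Plexins gave 3 of the 4 members past 2-fold in favour of CD8- DCs. These were 3 of the 9 measured plexins, against 5.97% of all measured genes. No plexin passed 2-fold in favour of CD8+ DCs. Only 3.55% of all measured genes did, so among 9 genes that absence says little about plexins. Plxnc1, the receptor of Sema7a, gave a log2 signal of 7.87 in CD8+ DCs, against 10.08 in CD8- DCs, 4.61-fold higher in CD8- DCs. This was the 198th largest difference in favour of CD8- DCs. Plxnc1 also had the most measured probe sets of the family, all read on the same 2 arrays. Its other 4 measured probe sets read 7.79, 7.37, 6.19 and 5.69 in CD8+ DCs, against 9.69, 9.51, 8.29 and 7.53 in CD8- DCs. The 5 differences thus spanned -2.21 to -1.85, a range little wider than the pooled SD. A 6th probe set was below the floor on both arrays, at 2.48 in CD8+ DCs and 3.04 in CD8- DCs.

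Plxnb2, a plexin that binds class 4 semaphorins and is widely expressed, was at 6.42 in CD8+ DCs and 8.12 in CD8- DCs, 3.25-fold higher in CD8- DCs. Plxnd1, the receptor that Sema3e can bind without a neuropilin and that also binds Sema4a, was at 5.71 in CD8+ DCs and 7.05 in CD8- DCs, 2.54-fold higher in CD8- DCs. Each rests on 1 probe set, so no second measurement within the arrays bears on their size. Beside these receptors, the macrophage gene Adgre1 was at 4.63 in CD8+ DCs and 8.22 in CD8- DCs, and the complement genes C1qa and C1qb were at 2.84 and 3.25, below the floor, in CD8+ DCs, against 5.30 and 5.41 in CD8- DCs. The other 2 measured macrophage markers lay the other way, with Hmox1 at 6.80 in CD8+ DCs, against 5.65 in CD8- DCs, and Vcam1 at 5.52 in CD8+ DCs, against 4.66 in CD8- DCs.

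The promoters of the 3 plexins higher in CD8- DCs (all GRCm38.p6, minus strand) are shown together, as receptors that differed in the same direction. They lie at chr10:94944796-94945095 for Plxnc1, chr15:89180739-89181038 for the more upstream of 2 Plxnb2 starts and chr6:115994956-115995255 for Plxnd1. Capitals mark matches as for Sema4f.
Plxnc1: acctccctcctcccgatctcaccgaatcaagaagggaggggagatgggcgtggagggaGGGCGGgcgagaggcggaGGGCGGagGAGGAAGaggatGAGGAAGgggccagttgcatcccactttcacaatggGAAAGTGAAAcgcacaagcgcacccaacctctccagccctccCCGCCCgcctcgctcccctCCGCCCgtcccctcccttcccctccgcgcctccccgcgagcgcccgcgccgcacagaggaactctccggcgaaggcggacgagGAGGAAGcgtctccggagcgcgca
Plxnb2: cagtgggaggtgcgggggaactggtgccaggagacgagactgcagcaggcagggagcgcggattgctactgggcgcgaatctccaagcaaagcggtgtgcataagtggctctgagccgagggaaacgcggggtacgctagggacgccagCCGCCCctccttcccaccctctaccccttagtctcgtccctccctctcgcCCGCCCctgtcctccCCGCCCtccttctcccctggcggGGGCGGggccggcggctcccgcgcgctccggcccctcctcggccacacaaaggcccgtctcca
Plxnd1: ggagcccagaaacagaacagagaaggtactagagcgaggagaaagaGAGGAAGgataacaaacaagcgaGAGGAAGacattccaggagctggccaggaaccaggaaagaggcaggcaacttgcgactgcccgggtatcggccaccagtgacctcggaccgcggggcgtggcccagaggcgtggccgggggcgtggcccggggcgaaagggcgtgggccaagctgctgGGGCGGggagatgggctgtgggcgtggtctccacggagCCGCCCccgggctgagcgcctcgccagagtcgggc

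Plxnc1 was the single gene of the 5 past 2-fold with a match to GAAANNGAAA, written GAAAGTGAAA 118 bases before the start, and 3.44% of all promoters held this motif. It also held 3 matches to GAGGAAG, as did Plxnd1 with 2, whereas Plxnb2 had none at either start. GC boxes numbered 4 in Plxnc1, 4 in Plxnb2 and 2 in Plxnd1. GC content was 69.0%, 70.3% and 67.0% in the same order. None of the 5 genes had a match to GGAANNGAAA, TGANTCA or TATAAA in the windows searched, motifs held by 2.72%, 7.81% and 13.6% of all promoters. A match is a run of letters and was not tested for binding.

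The other 6 plexins were under 2-fold and, with 1 exception, slightly higher in CD8+ DCs. The A plexins pair with neuropilins as receptors of class 3 semaphorins and bind class 6 semaphorins directly. All 4 had differences between 0.17 and 0.46, or between 0.07 and 0.35 once a lowess fit against signal was subtracted. Plxna1, which has been linked to DC contact with T cells, was at 4.26 in CD8+ DCs and 3.94 in CD8- DCs. In CD8+ DCs Plxna2, Plxna3 and Plxna4 were at 4.32, 4.42 and 4.90, against 3.86, 4.25 and 4.60 in CD8- DCs. Each of them had 1 probe set above the floor, and those values lay close to it. Plxnb1, the high-affinity receptor of Sema4d, was at 5.96 in CD8+ DCs and 5.77 in CD8- DCs. Plxnb3 was at 4.54 in CD8+ DCs and 4.59 in CD8- DCs. Plxna4os1 was below the floor on both arrays (2.63 in CD8+ DCs and 2.15 in CD8- DCs).

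Nrp1, a co-receptor for class 3 semaphorins and for the growth factor VEGF, was transcribed in both populations with a small difference. It was at 8.70 in CD8+ DCs and 9.08 in CD8- DCs, 1.30-fold higher in CD8- DCs. All 4 of its probe sets were measured, and their differences lay between -0.43 and -0.36, all slightly beyond the pooled SD in the same direction. Regulatory T cells also carry neuropilin 1 in mice, and of their 4 markers Foxp3, Il2ra and Ikzf2 were below the floor on both arrays. The other, Ctla4, was at 5.08 in CD8+ DCs, against 3.50, below the floor, in CD8- DCs, at least 2.36-fold higher in CD8+ DCs. Nrp2, the second neuropilin, was just under the floor at 3.78 in CD8+ DCs and 3.72 in CD8- DCs, and its other 3 probe sets were lower still.

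Of the secreted class 3 semaphorins, 5 of 7 were below the floor on both arrays: Sema3a, Sema3c, Sema3d, Sema3e and Sema3g. Sema3d and Sema3a are adjacent protein-coding genes on chromosome 5 in the GRCm38.p6 table. Between Sema3a and Sema3e lie 3 protein-coding genes, and between Sema3e and Sema3c 15, which are not described here. None of these 4 semaphorin genes was measured, where 62.7% of all genes were. Sema3b was at 3.74, below the floor, in CD8+ DCs, against 3.92, just over it, in CD8- DCs, at least 1.05-fold higher in CD8- DCs. Sema3f, a ligand that prefers neuropilin 2, was at 7.54 in CD8+ DCs and 7.33 in CD8- DCs on an _x_at probe set. Its other measured probe set read 4.96 in CD8+ DCs and 4.66 in CD8- DCs, so the difference was small on both.

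Neither class 5 gene (Sema5a and Sema5b) was measured, and the 3 measured class 6 genes were under 2-fold. Sema6c was at 6.05 in CD8+ DCs and 5.77 in CD8- DCs, but its other measured probe set, at 4.77 in CD8+ DCs and 4.90 in CD8- DCs, differed in the opposite direction (-0.13). Sema6a was at 4.45 in CD8+ DCs and 4.23 in CD8- DCs. Sema6d, a ligand of plexin A1, was at 3.99 in CD8+ DCs, while its CD8- DC value of 3.45 lay below the floor, at least 1.10-fold higher in CD8+ DCs. Sema6b was below the floor on both arrays, at 3.66 in CD8+ DCs and 3.28 in CD8- DCs. In all, the 11 unmeasured members had signals between 2.15 and 3.78. For 8 of them the value in CD8+ DCs was the higher, by at most 0.48, and 2 (Sema3d and Sema5b) had identical values on both arrays. Dim genes in general leaned slightly that way: the median difference over all genes was 0.06 without a filter, against 0.03 over measured genes. Of the 79 probe sets of the family, 7 (8.86%) had identical values, none above 3.24, against 7.30% of all probe sets.

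**Figure D3:**
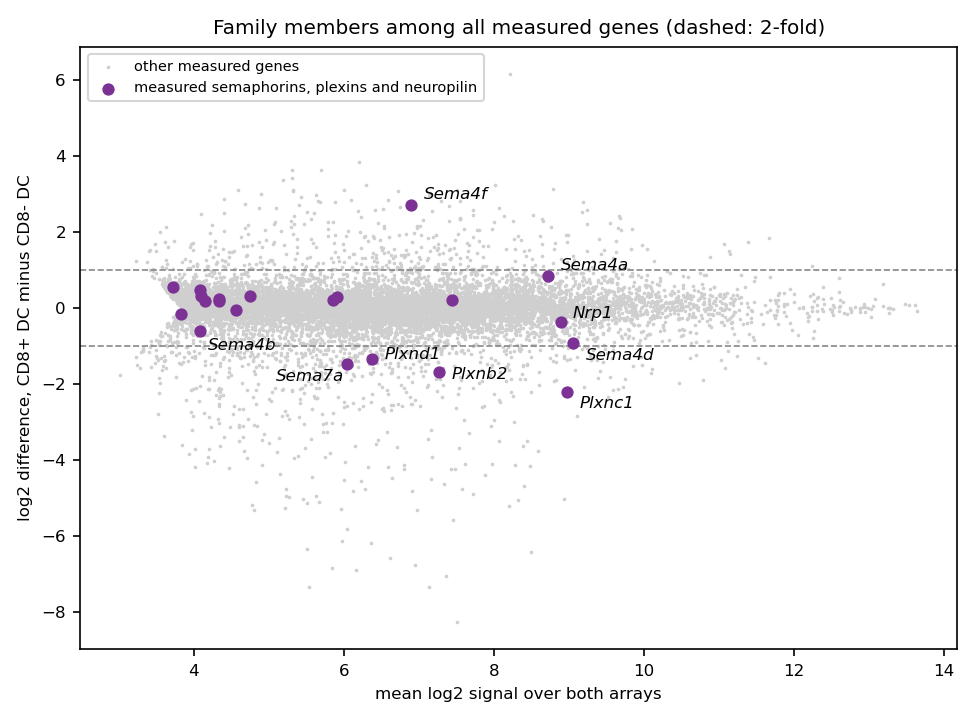
Mean log2 signal over both arrays (x axis) against the log2 difference, CD8+ DC minus CD8- DC (y axis), with measured genes outside the family in grey and the 21 measured members in purple. Dashed lines mark 2-fold. Sema4f lies at 2.70, while Plxnd1, Sema7a, Plxnb2 and Plxnc1 lie between -1.34 and -2.21 and the others between the lines.

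Ligands and receptors can be read beside each other. Pairs of known partners were listed after the values had been seen, so they describe and support nothing. In 10 of the 15 pairs both genes were measured. In 1 of these, Sema7a with Plxnc1, both passed 2-fold in favour of CD8- DCs on their brightest probe sets (differences of -1.48 and -2.21). For Sema4d with Plxnb2 both differences were below 0 (-0.92 and -1.70), whereas Plxnb1 was at 0.19. For Sema4a with Plxnb2 or Plxnd1 the ligand was at 0.83 and the receptors at -1.70 and -1.34, so ligand and receptor leaned to different populations. Plxnd1 was measured while its ligand gene Sema3e was at 2.95 in CD8+ DCs and 2.85 in CD8- DCs, below the floor.

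**Figure D4:**
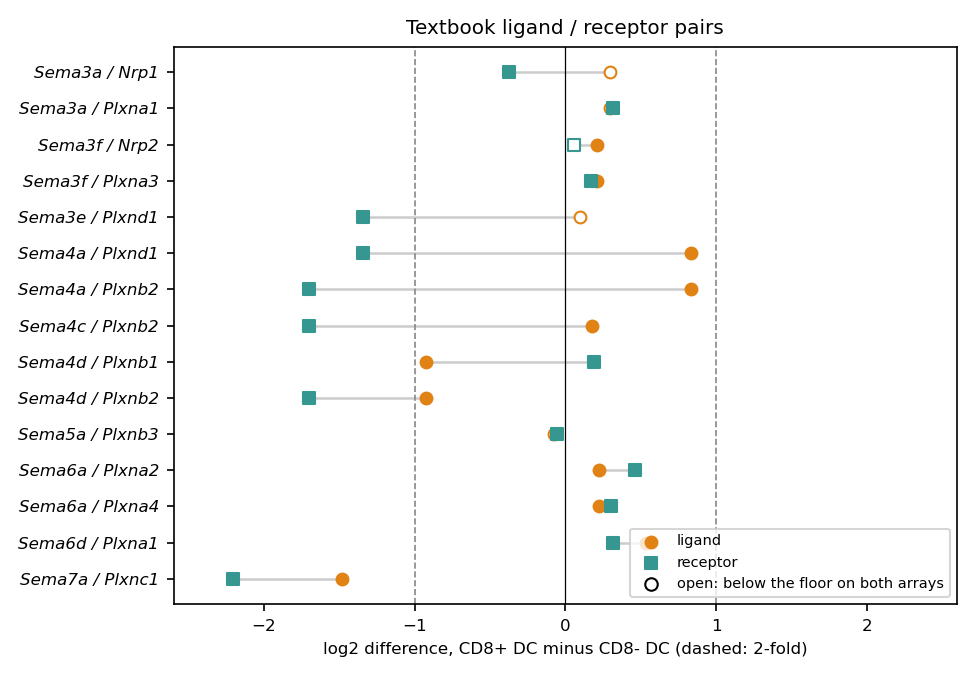
Log2 difference, CD8+ DC minus CD8- DC (x axis), of the ligand gene (circle) and the receptor gene (square) in each of 15 known pairs (rows), with dashed lines at 2-fold. Open symbols are genes below the floor on both arrays. In the Sema7a and Plxnc1 row both symbols lie left of -1, at -1.48 and -2.21.

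Partner genes of semaphorin signalling were taken from a list of 62, of which 45 were measured. The list was made from general knowledge with earlier results of these data known, so its shares describe these arrays and support nothing further. Past 2-fold were 5 (11.1%) in favour of CD8+ DCs, against 3.55% of all measured genes, and 4 (8.89%) in favour of CD8- DCs, against 5.97%. The other 36 were under 2-fold, and the median difference was 0.04. Of the 9 past 2-fold, 6 encode receptors or co-receptors, where 4 non-plexin receptors and 8 receptor partners were measured. The other 3 encode GTPases or their regulators, where 12 were measured. Of all measured genes, 9.52% were past 2-fold in either direction.

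Among receptors of semaphorins that are not plexins, Cd72 differed most. Cd72, a lectin-like inhibitory receptor for Sema4d found on B cells and some DCs, was at 4.22 in CD8+ DCs and 8.42 in CD8- DCs, 18.4-fold higher in CD8- DCs. The B cell receptor gene Cd79b was at 3.28, below the floor, in CD8+ DCs and 6.59 in CD8- DCs, while Cd79a was at 3.55 in CD8+ DCs and 3.35 in CD8- DCs, both below the floor. The B cell marker Ms4a1 lay the other way, at 5.74 in CD8+ DCs, against 4.99 in CD8- DCs. Itga1, the α1 chain that pairs with β1 to bind Sema7a, was at 5.74 in CD8+ DCs and 4.01 in CD8- DCs, 3.33-fold higher in CD8+ DCs. With all Itga1 probe sets averaged, those below the floor included, its difference of 1.73 was 1.04. Itgb1 was at 9.43 in CD8+ DCs, against 9.05 in CD8- DCs. Timd2, a mouse receptor gene for Sema4a, and its relative Havcr1 were below the floor on both arrays.

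Co-receptors divided between the populations. L1cam, a neural adhesion molecule that joins neuropilin 1 in the Sema3a receptor, was at 4.33 in CD8+ DCs and 7.35 in CD8- DCs, 8.14-fold higher in CD8- DCs. With all L1cam probe sets averaged, those below the floor included, its difference of -3.03 was -1.85. Met, the hepatocyte growth factor receptor that associates with B plexins, was at 7.998 in CD8+ DCs, against 6.49 in CD8- DCs, 2.85-fold higher in CD8+ DCs, with its other probe set at a difference of 1.67. The VEGF receptor genes went opposite ways: Flt1 was 2.02-fold higher in CD8+ DCs (5.06, against 4.05 in CD8- DCs), and Kdr was 2.15-fold higher in CD8- DCs (5.20 in CD8+ DCs, against 6.30 in CD8- DCs). The 3 Flt1 probe sets differed by 1.02 to 2.74, and with each array centred on its median the brightest of them was under 2-fold (0.98), as it was with the lowess fit subtracted (0.92). Kdr is also an endothelial gene, and among the endothelial markers Pecam1 was likewise higher in CD8- DCs (5.35 in CD8+ DCs, against 6.88 in CD8- DCs), while Egfl7, the third measured, was at 5.80 in CD8+ DCs, against 5.61 in CD8- DCs. Trem2 and Tyrobp, which signal with plexin A1 in DCs, were at 4.95 and 11.04 in CD8+ DCs and at 5.08 and 11.89 in CD8- DCs, both under 2-fold.

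Of the 12 measured GTPases and their regulators, 3 were past 2-fold, where 9.52% of all measured genes were past it in either direction. Mras, a Ras relative that plexins inactivate, was at 6.43 in CD8+ DCs and 4.82 in CD8- DCs, 3.04-fold higher in CD8+ DCs. Farp2, an exchange factor bound by A plexins, was at 5.22 in CD8+ DCs and 4.11 in CD8- DCs, 2.16-fold higher in CD8+ DCs, and its other probe set differed by 2.77. Averaging its probe sets gave a difference of 1.94, against 1.11 for the brightest. Rnd3, a small GTPase of the kind that binds plexins, was at 8.27 in CD8+ DCs and 9.90 in CD8- DCs, 3.09-fold higher in CD8- DCs. Rras, the other main plexin target, was 1.94-fold higher in CD8- DCs (6.31 in CD8+ DCs and 7.26 in CD8- DCs). None of the 14 measured adaptors, kinases and cytoskeletal effectors, the 4 proteases or the 3 other neuropilin ligands was past 2-fold. For lists this short, that is close to the 9.52% of all measured genes. Single probe sets of Vegfa (-0.98 to 0.02) and Mmp14 (-0.68 to 0.36) differed in direction. Adam10 and Adam17, sheddases of membrane proteins, differed by -0.38 and -0.27.

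**Figure D5:**
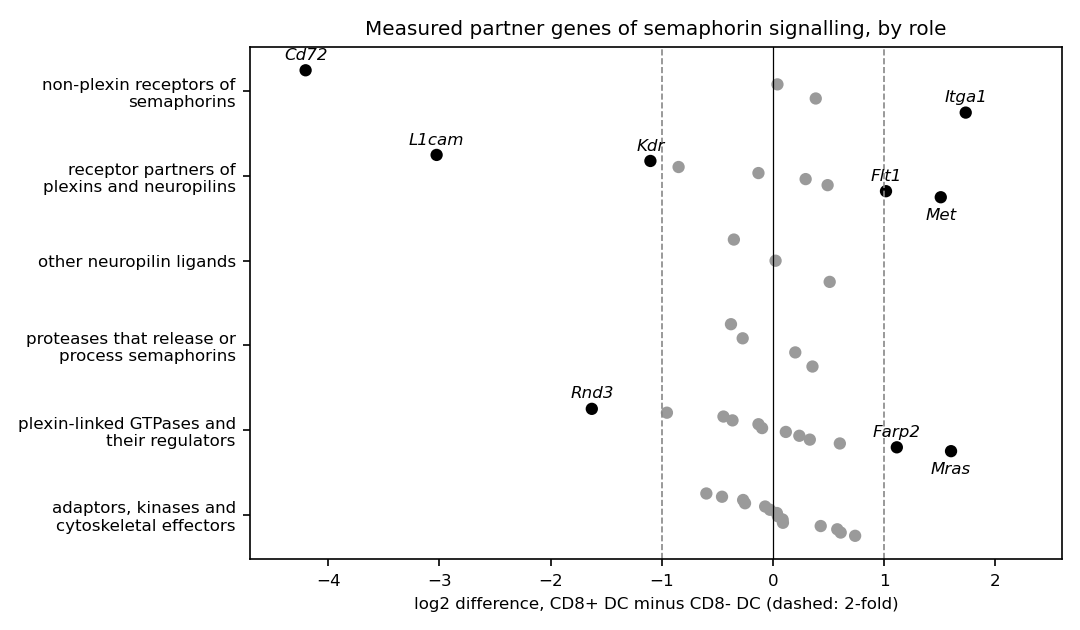
Log2 difference, CD8+ DC minus CD8- DC (x axis), of the 45 measured partner genes in 6 role groups (rows), with genes at least 2-fold apart in black and named and the other 36 in grey. Points within a row are spread vertically for legibility only, and dashed lines mark 2-fold. Cd72 (-4.20) and L1cam (-3.03) lie farthest left, and Itga1 (1.73) and Mras (1.60) farthest right.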

How the data were processed

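The deposited table holds log2 signal values for 45101 probe sets on 2 arrays, and RMA was the authors' tool per the submitters' processing notes. The version of RMA, and which arrays it normalised as a set, are not given here. RMA equalises the distributions of arrays, so a change common to most transcripts cannot be seen. The platform annotation gave 34958 probe sets 1 gene symbol and 932 several, and those with several stayed out. Symbols were updated by gene identifier through the RefSeq table of GRCm38.p6, which matched all 32 members. Promoters came from RefSeq on the same build and were found for 26 members. The files name no build, so probe sets are given no coordinates.

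Genes were described by size, CD8+ minus CD8-, at 2-fold among genes whose higher value reached 3.85. A fold written "at least" was computed against that floor, because the dimmer value lay below it. With 1 array per population no test was possible, and the number of arrays limits the precision. The members, the partner and marker lists and the alternatives were chosen with earlier results of these data known. The alternatives were arrays centred on their medians, a lowess trend (span 0.3) taken off the differences, no filter or one at the 75th percentile (6.01), the mean of all probe sets, no probe sets named _x_at or _s_at, low values set to the floor, and thresholds of 1.5-fold and 4-fold. Partner genes are named where they were past 2-fold. Further partner and marker genes, the ligand and receptor pairs and the promoter motifs were chosen after the values were seen. Python 3.11.15, numpy 2.4.6, pandas 2.3.3, statsmodels 0.14.6 and matplotlib 3.10.9 were used, and the calculation was tested on simulated data.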

Additional observations from a re-analysis of the deposited data

How the results depend on the processing

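Sema4f stayed past 2-fold higher in CD8+ DCs, and Plxnb2, Plxnc1, Plxnd1 and Sema7a in CD8- DCs, under all 7 alternatives to scaling, filter and choice of probe set. Plxnb2 and Plxnd1 have 1 probe set each, with both values above the floor, so only the alternatives to scaling could change their differences. The difference of Sema4f was 1.59 without the _x_at and _s_at probe sets, against 2.70. With a threshold of 1.5-fold, 2 of the 21 members were higher in CD8+ DCs, against 8.49% of all measured genes. With 4-fold 1 of the 21, Plxnc1, was higher in CD8- DCs, against 2.10%. The members' median difference of 0.17 was -0.65 with the filter at the 75th percentile, which kept 10 of the 21 genes. Over all genes kept by it the median was -0.01. Partner genes higher in CD8+ DCs numbered 2 with that filter, where 4.45% of all genes kept were. Of the 45 measured partner genes, 8 were higher in CD8+ DCs at 1.5-fold and 0 at 4-fold, against 8.49% and 0.86% of all measured genes. Those higher in CD8- DCs numbered 7 at 1.5-fold and 2 at 4-fold, against 11.5% and 2.10%. With all probe sets averaged, the partner genes L1cam, Itga1 and Farp2 were at -1.85, 1.04 and 1.94, against -3.03, 1.73 and 1.11. No member changed its side of 2-fold in any of the 128 values recomputed for single members. Part of these could not move, because a change of filter leaves the value of a kept gene as it was. Among members under 2-fold, Sema6d alone moved by more than the pooled SD of 0.30, to 0.14 with low values set to the floor. Plxnb3, near 0, was at 0.14 with probe sets averaged, and was below the floor without the _x_at and _s_at probe sets. No paired analysis was possible because each population has 1 array, and no array could be left out. Levels near the floor of 3.85, as for the A plexins, leave small differences unreadable.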
